A study of Mus musculus with 20 samples.

Results

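The genes described here are 35 mouse genes that make, carry or handle haemoglobin, heme and iron, found by symbol among the 45706 gene entries of the deposited table. They comprise 4 globins, 10 red-cell receptors, membrane proteins and enzymes, 10 genes of heme synthesis and mitochondrial import, 4 of iron storage and transport, 3 of heme export and breakdown, 2 iron sensors and 2 metallothioneins. RNA was sequenced from 20 libraries of bone-marrow cells sorted from C57BL/6 mice aged 8 weeks. The Hopx-knockout (KO) groups were KO MPP2, KO MPP3 and KO LT-HSC, with 3 libraries each. The Hopx-wildtype (WT) groups were WT MPP2 with 3 libraries, WT MPP3 with 4 and WT LT-HSC with 4. LT-HSC are long-term haematopoietic stem cells, and MPP2 and MPP3 are types of multipotent progenitor. Hopx is a homeodomain protein without DNA-binding activity of its own. The labels give no design of the knockout allele, no surface markers for the sort and no animal of origin. Libraries of different populations may therefore come from 1 animal, and p-values measure only the spread between libraries, which may be in part technical.

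Mature red cells carry oxygen on haemoglobin, which joins alpha and beta globin chains to heme. Heme is built in steps shared between mitochondria and cytosol, from glycine and succinyl-CoA to protoporphyrin, into which ferrochelatase inserts iron. Cells take up iron through the transferrin receptor, store it in ferritin and release it through ferroportin, and iron regulatory proteins tune these steps by binding RNA stem-loops. Erythroid commitment in bone marrow begins among progenitors, with MPP2 known to lean toward red-cell and platelet output and MPP3 toward granulocytes and macrophages.

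The values are normalized counts, that is, reads per gene divided by 1 size factor per library by the authors. Reads in genes ran from 11163345 to 15189909 per library, and 14931 to 20831 genes had a read. Hopx was at 0 in all 9 KO libraries, and had 61.2, 11.01 and 40.2 normalized counts in WT MPP2, 23.2, 42.7, 30.3 and 11.7 in WT MPP3 and 30.2, 58.9, 37.1 and 0 in WT LT-HSC. The level of 0 does not separate the library labelled WT LT-HSC replicate 4 from the knockouts, and 0 of the 35 genes were called by genotype without it as well. A list of 8 LT-HSC markers summed to 1228 to 4274 in MPP2, 1408 to 4349.8 in MPP3 and 6125 to 11489 in LT-HSC, highest in the libraries labelled LT-HSC. The myeloid progenitor list of 5 genes summed to 946 to 68155 in MPP2, 18145 to 141928 in MPP3 and 1018 to 3088 in LT-HSC. MPP2 and MPP3 overlapped. The highest MPP2 sum was in WT MPP2 replicate 3. That library also had the lowest MPP2 sum of 6 megakaryocyte markers, 2997, against 11756 to 70373 in KO MPP2. In 5 libraries the neutrophil genes S100a8 and S100a9 both exceeded 1000 normalized counts. They were WT MPP2 replicate 2, WT MPP3 replicates 2 and 3, KO LT-HSC replicate 1 and WT LT-HSC replicate 2, and values without them are given where they end a call, turn a direction or move a value by over 1.5 times. KO LT-HSC replicate 1 also had the highest B-lineage sum, at 4062, against 748 to 888 in WT LT-HSC. In each KO group 2 libraries carried Xist and 1 carried Y-linked transcripts, whereas in WT groups 1 carried Xist and 2 or 3 carried Y-linked transcripts. The part of sex in the genotype comparisons was not tested.

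Differences between populations touched few of these genes, and none differed by genotype at the threshold. Of the 35 genes, 34 passed a filter on low reads, and Slc4a1, the anion exchanger band 3, did not. A gene was called where the Benjamini-Hochberg adjusted p of limma, over 17160 genes, was under 0.05. In MPP2 against LT-HSC 1 of 34 was called, Car1, where 7.32% of all genes were called. Car1 was higher, as were 2.24% of all genes, and 0 of the 34 were lower, against 5.08% of all genes. In MPP3 against LT-HSC 3 of 34 were called, where 7.4% of all genes were called. Alas1 and Fth1 were higher, beside 3.22% of all genes, and Car2 was lower, beside 4.18%. In MPP2 against MPP3 3 of 34 were called, where 6.88% of all genes were called. Blvra was higher, beside 2.24% of all genes, and Alas1 and Fth1 were lower, beside 4.64%. These shares lie near or below the share among all genes. The 3 population comparisons share libraries. In bulk samples, fewer cells of a type and less RNA per cell cannot be told apart. The median fold change of the 34 genes was 0.36 on the log2 scale in MPP2 against LT-HSC, beside -0.11 over all genes tested. It was 0.23 in MPP3 against LT-HSC, beside -0.0004, and 0.23 in MPP2 against MPP3, beside -0.09.

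**Figure D1:**
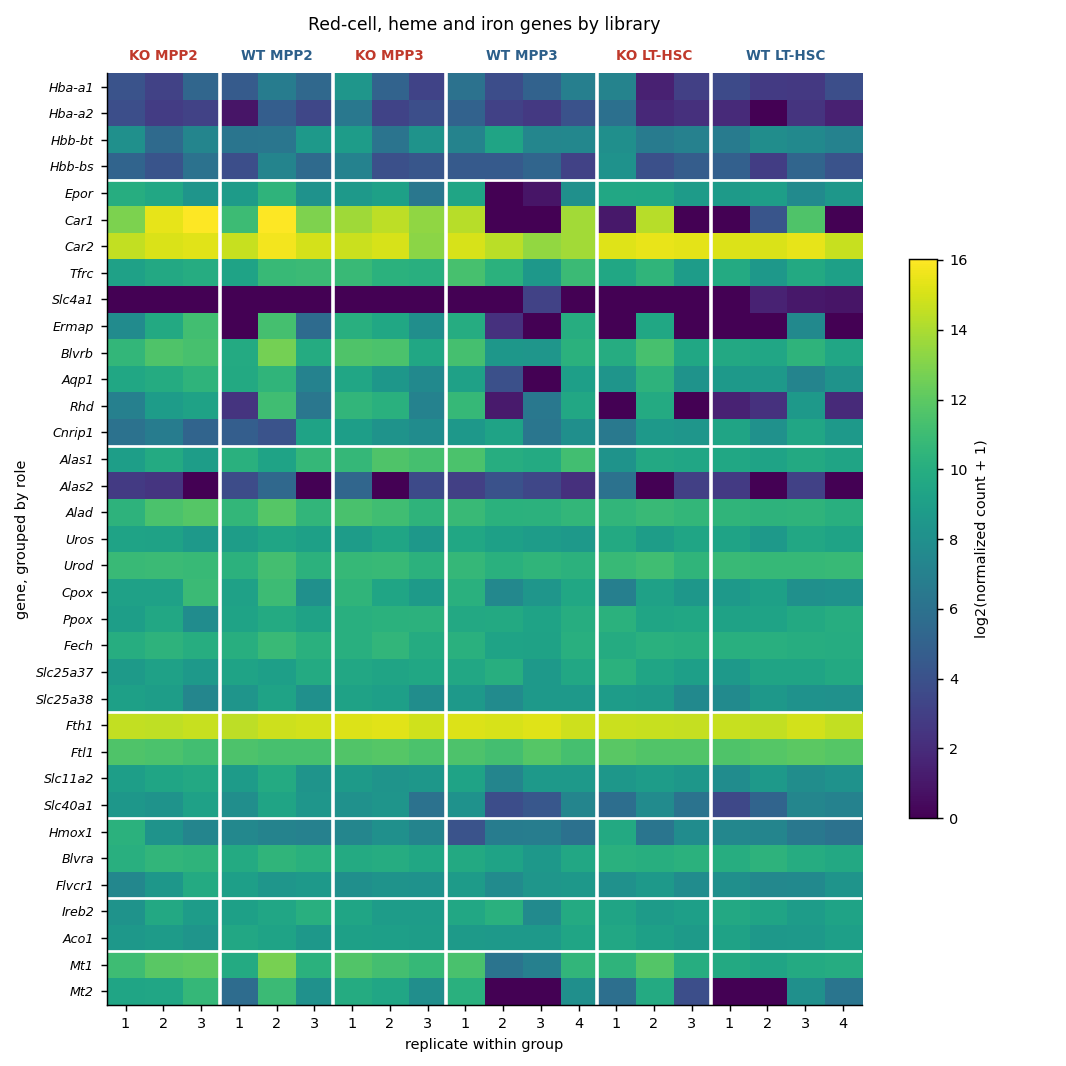
Heat map of log2(normalized count + 1) for the 35 genes (rows, grouped by role) in each of 20 libraries (columns, numbered within KO and WT groups of MPP2, MPP3 and LT-HSC). Hba-a1, Hba-a2, Hbb-bs, Alas2 and Slc4a1 are dark in most libraries. Fth1 and Car2 are bright in all, and Car1, Ermap, Rhd and Mt2 switch between bright and dark within single groups.

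Globin counts were low in every group. The paralogs are nearly identical, and reads that were not uniquely aligned form a class apart from those counted in genes. Globin levels may therefore be undercounts of unknown size, and the split of reads between paralogs is uncertain. The coding sequences of Hba-a1 and Hba-a2, 429 bases each, differ at 1 base, C381T, counted from 1 at the first base of the start codon. Those of Hbb-bt and Hbb-bs, 444 bases each, differ at 1 base, T417C. The windows below are shown because reads over identical sequence cannot be assigned by the coding sequence alone. They are the 60 coding bases that end at the single difference, which is in capitals, read from GENCODE M21 transcripts (GRCm38): chr11:32284284-32284343 on the plus strand, chr11:32297101-32297160 on the plus strand, chr7:103812683-103812742 on the minus strand and chr7:103826692-103826751 on the minus strand.
Hba-a1: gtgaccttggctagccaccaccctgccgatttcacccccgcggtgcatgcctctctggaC
Hba-a2: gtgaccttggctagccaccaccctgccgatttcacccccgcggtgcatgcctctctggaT
Hbb-bt: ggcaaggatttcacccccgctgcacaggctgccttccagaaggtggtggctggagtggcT
Hbb-bs: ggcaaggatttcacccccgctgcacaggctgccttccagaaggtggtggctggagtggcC

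In MPP2, Hba-a1 had 16.2, 7.99 and 37.3 normalized counts in KO libraries, against 22.7, 106 and 41.3 in WT libraries. In MPP3, Hba-a1 had 340.0, 33.99 and 8.18 in KO libraries, against 63.5, 12.6, 32.1 and 119.9 in WT libraries. In LT-HSC, Hba-a1 had 140.5, 1.76 and 7.26 in KO libraries, against 10.99, 5.70, 5.31 and 13.4 in WT libraries. KO LT-HSC replicate 1 and KO MPP3 replicate 1, whose titles carry the consecutive library numbers 101 and 102, stood highest within their groups. The next numbers did not: 103, KO MPP2 replicate 1, had 16.2 and 104, KO LT-HSC replicate 2, had 1.76. All KO groups overlapped their WT groups. In MPP2, Hba-a2 had 13.3, 6.22 and 7.86 normalized counts in KO libraries, against 0.874, 26.02 and 9.45 in WT libraries. In MPP3, Hba-a2 had 83.95, 8.50 and 13.6 in KO libraries, against 31.3, 7.54, 5.35 and 15.3 in WT libraries. In LT-HSC, Hba-a2 had 59.9, 2.64 and 3.63 in KO libraries, against 2.75, 0, 4.24 and 1.78 in WT libraries. The same libraries, KO MPP3 replicate 1 and KO LT-HSC replicate 1, were highest for this second alpha-globin gene. In MPP2, Hbb-bs had 35.2, 16.9 and 65.8 normalized counts in KO libraries, against 13.1, 146 and 44.9 in WT libraries. In MPP3, Hbb-bs had 136, 14.2 and 18.2 in KO libraries, against 22.2, 22.6, 35.6 and 8.12 in WT libraries. In LT-HSC, Hbb-bs had 284, 14.1 and 25.4 in KO libraries, against 29.3, 6.65, 36.1 and 16.1 in WT libraries. KO LT-HSC replicate 1 was the highest library for this adult beta-globin gene. In MPP2, Hbb-bt had 256, 44.4 and 155 normalized counts in KO libraries, against 75.2, 76.1 and 395 in WT libraries. In MPP3, Hbb-bt had 459.6, 69.9 and 303 in KO libraries, against 145, 656, 163 and 169 in WT libraries. In LT-HSC, Hbb-bt had 246, 102 and 133 in KO libraries, against 101, 226, 196 and 137 in WT libraries. This beta-globin gene was highest in WT MPP3 replicate 2, and KO and WT libraries overlapped in each population. The 4 globins together summed to 75.5 to 490.3 in MPP2, 127 to 1020.0 in MPP3 and 120.3 to 731 in LT-HSC. No globin was called in any comparison, and the fold change of Hba-a2 in KO against WT LT-HSC, 1.89 ± 1.12 (SE) on the log2 scale with a limma adjusted p of 1, was 0.11 without the 5 libraries with neutrophil transcripts. Without KO LT-HSC replicate 1 alone it was 0.59, with edgeR 3.27 and with a pseudocount of 16 it was 0.74.

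Car1, carbonic anhydrase 1 of red cells, differed widely between libraries of 1 group. Car1 (ENSMUSG00000027556) lies at chr3:14766216-14808368 on the minus strand (GRCm38). In MPP2, Car1 had 7323, 43829 and 65089 normalized counts in KO libraries, against 1989, 66130.0 and 7708 in WT libraries. In MPP3, Car1 had 13323, 21953 and 10424 in KO libraries, against 19904, 0, 0 and 14105 in WT libraries. In LT-HSC, Car1 had 1.09, 19947 and 0 in KO libraries, against 0, 18.04, 3082 and 0 in WT libraries. All 6 MPP2 libraries had over 1000 normalized counts. In LT-HSC only KO replicate 2 and WT replicate 3 did, and in MPP3 WT replicates 2 and 3 were at 0. Car1 was higher in MPP2 than in LT-HSC, by 9.48 ± 2.77 (SE) on the log2 scale with a limma adjusted p of 0.0453. Because most LT-HSC libraries lie near 0, the size depends on the pseudocount, and it was 7.21 with 16. The call was lost with edgeR, where the log2 fold change was 3.80, and without the 5 libraries with neutrophil transcripts, where the adjusted p was 0.138. With the library-number range as covariate the adjusted p was 0.0618, and without the filter on low reads it was 0.0702. The call was also lost on leaving out any of 14 of the 20 single libraries, with adjusted p of 0.0545 to 0.117. It held without KO LT-HSC replicate 2, WT LT-HSC replicate 3 or any WT MPP3 library.

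Ermap, an erythroid membrane-associated protein, and Rhd, the Rh blood group antigen, followed Car1 in most libraries. In MPP2, Ermap had 214, 831 and 2315 normalized counts in KO libraries, against 0, 2472 and 48.4 in WT libraries. In MPP3, Ermap had 1095, 754 and 236 in KO libraries, against 967, 3.77, 0 and 1004 in WT libraries. In LT-HSC, Ermap had 0, 728 and 0 in KO libraries, against 0, 0, 195 and 0 in WT libraries. Ermap was at 0 in 5 of 7 LT-HSC libraries. In MPP2, Rhd had 123, 455 and 600.3 normalized counts in KO libraries, against 4.37, 2168 and 79.1 in WT libraries. In MPP3, Rhd had 1516, 1136 and 138 in KO libraries, against 1674, 1.26, 84.6 and 783 in WT libraries. In LT-HSC, Rhd had 0, 897 and 0 in KO libraries, against 1.83, 3.80, 394 and 2.68 in WT libraries. At least 100 normalized counts of each were found in the same 11 libraries, a level chosen after the values were seen. The 11 include all KO MPP2 and KO MPP3 libraries, and in LT-HSC they are again KO replicate 2 and WT replicate 3. Car1, Ermap, Rhd and the metallothionein Mt2 were all at or above that level in those 11 libraries, and all below it in 7. WT MPP2 replicates 1 and 3 had Car1 above that level, at 1989 and 7708, and Ermap and Rhd below it. Klf1, an erythroid transcription factor and not one of the 35, had 1478 normalized counts in KO LT-HSC replicate 2 and 344 in WT LT-HSC replicate 3, beside 164, 213, 246, 258 and 358 in the other 5 LT-HSC libraries. In these LT-HSC libraries, KO replicate 2 and WT replicate 3, the LT-HSC markers summed to 6526 and 11489. The 11 measured erythroblast markers summed to 5635 and 1799 in these libraries, against 2143, 2297, 2383, 2415 and 2836 in the other 5. In WT MPP3 replicates 2 and 3 the erythroblast sums were 665 and 760.0, the lowest of the 20 libraries, with neutrophil sums of 25029 and 16355. The part of other cells in these levels was not tested.

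**Figure D2:**
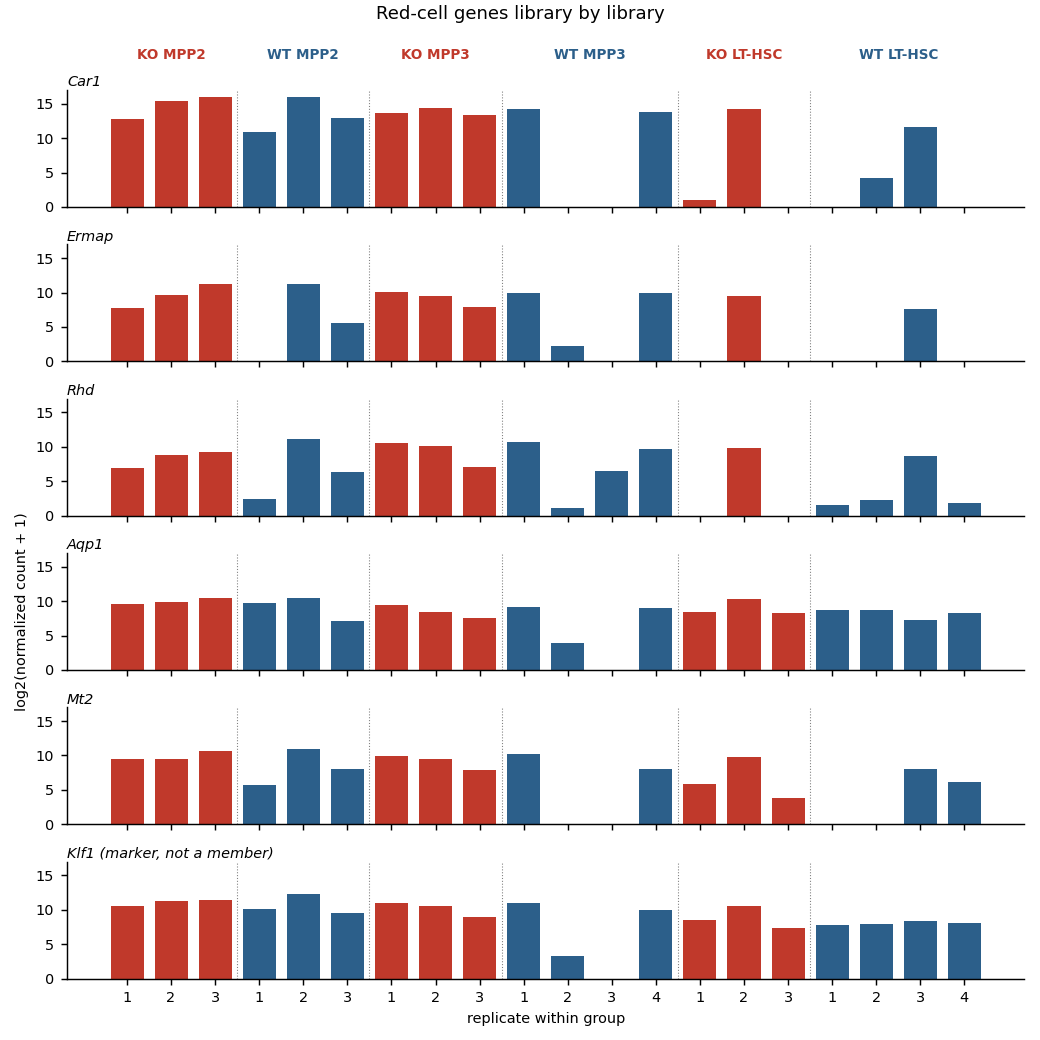
Bars of log2(normalized count + 1) for Car1, Ermap, Rhd, Aqp1, Mt2 and the erythroblast marker Klf1 in each library (KO red, WT blue; groups separated by dotted lines). In LT-HSC, KO replicate 2 and WT replicate 3 carry Ermap and Rhd, and WT MPP3 replicates 2 and 3 lack Car1.

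The promoters of Rhd and Ermap are shown because both genes moved together across libraries. They are the 250 bases before the RefSeq start (GRCm38.p6), at chr4:134864286-134864535 on the plus strand and chr4:119189996-119190245 on the minus strand, with the match to a GATA motif in capitals. The motif was searched as AGATAA or TGATAA and their reverse complements TTATCT and TTATCA, in windows from 250 bases before to 50 after the start. It was present in 18.6% of 32851 promoter windows of all genes and in 9 of 33 windows (27.3%) of the 27 of the 35 genes that have an entry. Mt2, also at or above 100 normalized counts in the same 11 libraries, had 0 matches in its window, and Car1 has no entry. A match is a description of the letters and no evidence of binding.
Rhd: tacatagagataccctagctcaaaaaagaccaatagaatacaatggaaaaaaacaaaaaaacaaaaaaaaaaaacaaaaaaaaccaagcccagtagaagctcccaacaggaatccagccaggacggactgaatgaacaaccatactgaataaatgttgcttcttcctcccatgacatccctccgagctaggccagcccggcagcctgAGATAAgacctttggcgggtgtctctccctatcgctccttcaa
Ermap: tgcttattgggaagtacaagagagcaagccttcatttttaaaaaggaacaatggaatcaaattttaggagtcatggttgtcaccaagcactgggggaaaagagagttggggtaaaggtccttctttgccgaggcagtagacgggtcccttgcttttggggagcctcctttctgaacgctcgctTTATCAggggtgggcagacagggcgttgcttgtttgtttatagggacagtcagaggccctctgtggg

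Epor, the erythropoietin receptor, was present in all but 2 libraries at 80.9 or more normalized counts. In MPP2, Epor had 1011, 768 and 328 normalized counts in KO libraries, against 439.7, 1373 and 288 in WT libraries. In MPP3, Epor had 382, 542 and 80.9 in KO libraries, against 687, 0, 0.891 and 258 in WT libraries. In LT-HSC, Epor had 763, 739.6 and 443 in KO libraries, against 430.5, 495, 202 and 348 in WT libraries. WT MPP3 replicates 2 and 3 had 0 and 0.891, and no group was clear of its counterpart. Car2, carbonic anhydrase 2, is widely expressed in early haematopoietic cells. Car2 (ENSMUSG00000027562) lies at chr3:14886273-14900770 on the plus strand (GRCm38). In MPP2, Car2 had 23772, 35314 and 39716 normalized counts in KO libraries, against 25774, 53668 and 32778 in WT libraries. In MPP3, Car2 had 26993, 34266 and 9773 in KO libraries, against 33317, 20846, 10925 and 14353 in WT libraries. In LT-HSC, Car2 had 38110.5, 45169.6 and 41601 in KO libraries, against 36446, 35575, 44009 and 26154 in WT libraries. Car2 averaged 21496 ± 10276 in MPP3 and 38152 ± 6441 in LT-HSC (SD, n = 7 each), and the ranges overlapped. Car2 was lower in MPP3, with a log2 fold change of -0.97 ± 0.28 (SE) and a limma adjusted p of 0.0374. The call was lost with edgeR (adjusted p 0.0922), without the 5 libraries with neutrophil transcripts (adjusted p 0.202), and on leaving out any 1 of 9 libraries. Those were all KO LT-HSC libraries, WT LT-HSC replicates 1, 2 and 3, KO MPP3 replicate 3 and WT MPP3 replicates 3 and 4, with adjusted p of 0.0622 to 0.112.

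Tfrc, the transferrin receptor that brings iron into the cell, was present in every library. In MPP2, Tfrc had 584, 795 and 959 normalized counts in KO libraries, against 637, 1744 and 1904 in WT libraries. In MPP3, Tfrc had 1834, 1219 and 1104 in KO libraries, against 2574, 1199.9, 369 and 1940.5 in WT libraries. In LT-HSC, Tfrc had 733, 1411 and 470.2 in KO libraries, against 897, 379, 842 and 547 in WT libraries. The highest library was WT MPP3 replicate 1 and the lowest WT MPP3 replicate 3, both of 1 group, and Tfrc was not called in any comparison. Cnrip1, a binding partner of the cannabinoid receptor, was low in 5 of 6 MPP2 libraries. In MPP2, Cnrip1 had 63.8, 107 and 34.4 normalized counts in KO libraries, against 27.1, 16.01 and 628 in WT libraries. In MPP3, Cnrip1 had 507, 304 and 218 in KO libraries, against 364, 618, 77.5 and 252 in WT libraries. In LT-HSC, Cnrip1 had 88.2, 407 and 347 in KO libraries, against 655, 272, 707 and 402 in WT libraries. The exception was WT MPP2 replicate 3, which had the highest myeloid progenitor sum in MPP2, 68155, and the lowest megakaryocyte marker sum, 2997. The part of cell mixture in its Cnrip1 level was not tested. Without strand information, reads of Cnrip1 and the overlapping Plek cannot be told apart over shared bases. The fold change in MPP2 against LT-HSC was -2.36 ± 0.71 (SE) on the log2 scale, with a limma adjusted p of 0.0516, just outside the threshold. It passed with a pseudocount of 16 (adjusted p 0.0478), with the library-number range as covariate (adjusted p 0.0163), and without KO LT-HSC replicate 1, KO MPP2 replicate 2, WT MPP2 replicate 3 or WT MPP3 replicate 3. Aqp1, a water channel of the red-cell membrane, ranged over 0 to 1421 normalized counts in the 20 libraries, with 13.8 and 0 in WT MPP3 replicates 2 and 3. Blvrb, a flavin and biliverdin reductase abundant in red cells, ranged over 342 to 6411. Slc4a1 had reads in only 4 libraries, with a highest value of 8.02 in WT MPP3 replicate 3.

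Among the genes of heme synthesis, Alas1 differed between populations. It encodes the housekeeping form of 5-aminolevulinate synthase, the first and rate-limiting enzyme, and Alas2 the erythroid form. Alas1 (ENSMUSG00000032786) lies at chr9:106233455-106248654 on the minus strand (GRCm38). In MPP2, Alas1 had 496, 882 and 475 normalized counts in KO libraries, against 1168, 632 and 1596 in WT libraries. In MPP3, Alas1 had 1599, 3091 and 2536 in KO libraries, against 2815, 1019, 880.3 and 2308 in WT libraries. In LT-HSC, Alas1 had 304, 812 and 711 in KO libraries, against 728, 632, 845 and 659 in WT libraries. All 7 MPP3 libraries lay above all 7 LT-HSC libraries, and among MPP3 the lowest were WT replicates 2 and 3. Libraries of these populations did not overlap for 4.66% of all genes. Alas1 averaged 2036 ± 876 in MPP3 and 670.1 ± 179 in LT-HSC (SD, n = 7 each). It was higher in MPP3 by 1.59 ± 0.31 (SE) on the log2 scale, with a limma adjusted p of 0.00254. The call held under all 26 alternatives, with adjusted p of 0.000782 to 0.011. Alas1 was lower in MPP2 than in MPP3, with a log2 fold change of -1.26 ± 0.32 (SE) and a limma adjusted p of 0.0228. That call was lost without KO MPP3 replicate 2, KO MPP3 replicate 3 or WT MPP2 replicate 2, with adjusted p of 0.0584 to 0.0731. The WT MPP3 libraries with the least Alas1, replicates 2 and 3, also had the lowest myeloid progenitor sums in MPP3, 18145 and 23398, against 107207 to 141928 in KO MPP3. In MPP2, the myeloid progenitor gene Mpo had 1136, 15747 and 91.4 normalized counts in KO libraries, against 22559, 105 and 41133 in WT libraries. WT MPP2 replicates 3 and 1 and KO MPP2 replicate 2 were the highest MPP2 libraries for each of the 5 genes of that list and for Alas1. The part of cell mixture in the Alas1 differences was not tested. Without strand information, reads of Alas1 and the overlapping 4930500F10Rik cannot be told apart.

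**Figure D3:**
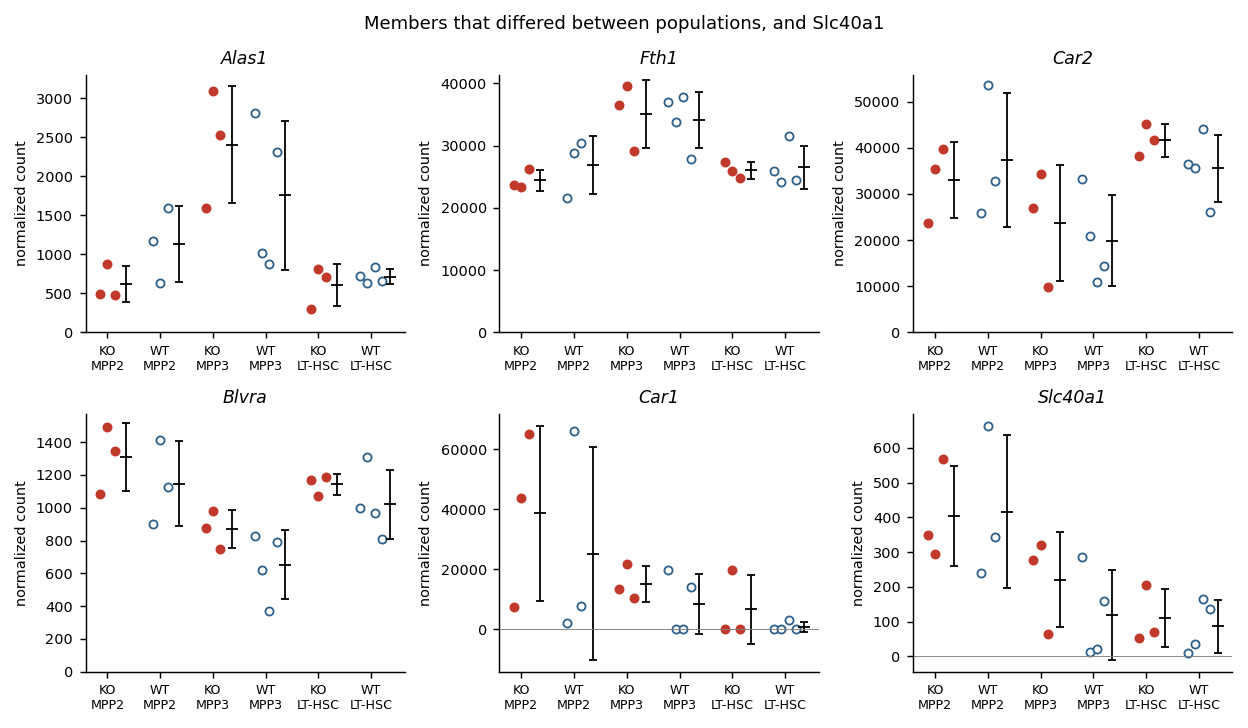
Normalized counts by library (points; KO filled red, WT open blue) with the group mean and SD beside them (black) for Alas1, Fth1, Car2, Blvra, Car1 and Slc40a1 in KO and WT MPP2, MPP3 and LT-HSC. Every MPP3 point for Alas1 lies above every LT-HSC point, whereas Car1 is near 0 in most LT-HSC libraries and high in KO replicate 2.

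Alas2 was near the limit of detection. In MPP2, Alas2 had 5.72, 4.44 and 0 normalized counts in KO libraries, against 12.2, 41.03 and 0 in WT libraries. In MPP3, Alas2 had 37.8, 0 and 10.9 in KO libraries, against 7.06, 15.1, 9.80 and 3.61 in WT libraries. In LT-HSC, Alas2 had 65.3, 0 and 7.26 in KO libraries, against 5.50, 0, 7.43 and 0 in WT libraries. Only KO LT-HSC replicate 1, WT MPP2 replicate 2 and KO MPP3 replicate 1 exceeded 30 normalized counts, and KO and WT overlapped in each population. The next enzymes were present in all libraries. Alad, porphobilinogen synthase, ranged over 1099 to 3587 normalized counts, and Uros, uroporphyrinogen III synthase, over 374 to 833. Urod, uroporphyrinogen decarboxylase, ranged over 1157 to 2409.7, and Cpox, coproporphyrinogen oxidase, over 121 to 2014. Ppox, protoporphyrinogen oxidase, ranged over 223 to 1245, and Fech, ferrochelatase, over 594 to 1860.3. Cpox had the largest ratio of highest to lowest library among these 6 genes, high in WT MPP2 replicate 2 and KO MPP2 replicate 3 and low in KO LT-HSC replicate 1. The mitochondrial iron importer Slc25a37 ranged over 385 to 1189, and the glycine importer Slc25a38 over 163 to 611. None of these 8 genes was called in any comparison. Uros overlaps Bccip, Ppox overlaps B4galt3, Cpox overlaps Gpr15, and Slc25a37 overlaps several predicted genes. Alas2, Car1, Ftl1, Mt2, Slc11a2 and Flvcr1 overlap other genes too. Ambiguous reads form a class apart from those counted in genes, so the counts of these genes may miss reads over shared bases.

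Several of these genes carry an iron-responsive element in an untranslated region, the stem-loop that iron regulatory proteins bind. A 17-base element was searched as the loop CAGTGN, with N any base but G, between 5 paired bases on each side (G with U allowed). An unpaired C stood before the stem. Elements of another form, such as a bulged stem, are missed, so a gene not listed may still carry one. It was found in 5 of the 35 genes (14.3%), and in 119 of 21875 genes overall (0.544%). The elements are shown because the sensors Aco1 and Ireb2 are known to act there, on translation or RNA stability, and the present data measure RNA level only. The loop is in capitals, and the sequences come from GENCODE M21 (GRCm38).
Alas2 5′ UTR, chrX:150547464-150547480 plus strand: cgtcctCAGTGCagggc
Fth1 5′ UTR, chr19:9982738-9982754 plus strand: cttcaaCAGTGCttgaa
Ftl1 5′ UTR, chr7:45459785-45459801 minus strand: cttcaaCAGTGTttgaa
Slc40a1 5′ UTR, chr1:45925471-45925487 minus strand: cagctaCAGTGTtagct
Tfrc 3′ UTR, chr16:32631225-32631241 plus strand: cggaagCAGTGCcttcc
Tfrc 3′ UTR, chr16:32631604-32631620 plus strand: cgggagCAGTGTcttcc
Tfrc 3′ UTR, chr16:32631669-32631685 plus strand: cggagaCAGTGAtctcc
Tfrc 3′ UTR, chr16:32631716-32631732 plus strand: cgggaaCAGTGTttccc

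Fth1, the ferritin heavy chain that oxidises and stores iron, carries the element in its 5′ untranslated region. Fth1 (ENSMUSG00000024661) lies at chr19:9980598-9985098 on the plus strand (GRCm38). In MPP2, Fth1 had 23592, 23298 and 26292 normalized counts in KO libraries, against 21641, 28743 and 30418 in WT libraries. In MPP3, Fth1 had 36491, 39588 and 29067 in KO libraries, against 37017, 33715, 37777 and 27822 in WT libraries. In LT-HSC, Fth1 had 27416, 25875 and 24752 in KO libraries, against 25940.1, 24207, 31494 and 24386 in WT libraries. MPP3 libraries were the highest on average, at 34497 ± 4503, against 26296 ± 2549 in LT-HSC (SD, n = 7 each), with overlap. MPP2 and MPP3 libraries also overlapped, as for all but 2.41% of all genes. Fth1 was higher in MPP3 than in LT-HSC, by 0.39 ± 0.10 (SE) on the log2 scale with a limma adjusted p of 0.0177. It was lower in MPP2 than in MPP3, with a log2 fold change of -0.43 ± 0.10 (SE) and a limma adjusted p of 0.017. Both calls were lost without the 5 libraries with neutrophil transcripts, at limma adjusted p of 0.165 and 0.12, while the log2 fold changes were 0.35 and -0.42. The call against LT-HSC was also lost without KO LT-HSC replicate 3, KO MPP3 replicate 1 or KO MPP3 replicate 2 (adjusted p 0.0503 to 0.0664). The call between MPP2 and MPP3 was lost without KO MPP3 replicate 2 or WT MPP2 replicate 1 (adjusted p 0.0509 to 0.0523).

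Ftl1, the ferritin light chain, had 3078, 2898 and 2322 normalized counts in KO MPP2 and 3020.3, 2669 and 2641 in WT MPP2. In LT-HSC, Ftl1 had 3866, 3303 and 3309 in KO libraries, against 3142, 3557, 3989 and 3517 in WT libraries. All 6 MPP2 libraries lay below all 7 LT-HSC libraries, which held for 2.6% of all genes in either direction, yet the limma adjusted p was 0.0642 and Ftl1 was not called. Slc40a1, ferroportin, exports iron from the cell. In MPP2, Slc40a1 had 349, 294 and 568 normalized counts in KO libraries, against 240.4, 664 and 344 in WT libraries. In MPP3, Slc40a1 had 277, 320.1 and 63.6 in KO libraries, against 285, 12.6, 19.6 and 158 in WT libraries. In LT-HSC, Slc40a1 had 53.4, 206 and 68.98 in KO libraries, against 10.1, 34.2, 166 and 137 in WT libraries. All 6 MPP2 libraries lay above all 7 LT-HSC libraries. The fold change was 2.44 ± 0.77 (SE) on the log2 scale with a limma adjusted p of 0.0625, which missed the threshold. It passed with a pseudocount of 16 (adjusted p 0.0338) and without WT MPP3 replicate 1 or 2. Slc11a2, the divalent metal transporter of iron, ranged over 157 to 898 normalized counts. The sensors Aco1 and Ireb2, whose proteins bind the elements shown above, ranged over 326 to 783 and 199 to 1131, and neither was called.

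Hmox1, heme oxygenase 1, opens the heme ring and releases its iron. In MPP2, Hmox1 had 1209, 299 and 158 normalized counts in KO libraries, against 177, 142 and 132 in WT libraries. In MPP3, Hmox1 had 161, 263 and 148 in KO libraries, against 16.1, 103, 111 and 61.3 in WT libraries. In LT-HSC, Hmox1 had 853, 73.8 and 219 in KO libraries, against 171, 155, 84.9 and 63.4 in WT libraries. KO MPP2 replicate 1 and KO LT-HSC replicate 1 stood far above the other libraries, and their titles carry the library numbers 103 and 101. The neighbouring numbers did not: 102, KO MPP3 replicate 1, had 161 and 104, KO LT-HSC replicate 2, had 73.8. In MPP3 all 3 KO libraries lay above all 4 WT libraries, as for 2.11% of all genes. Hmox1 was not called. The fold change averaged over populations was 1.38 ± 0.47 (SE) on the log2 scale, with an unadjusted p of 0.00927 and a limma adjusted p of 0.857. The macrophage gene C1qb had 425 in KO MPP2 replicate 1 and 215 in KO LT-HSC replicate 1. WT MPP2 replicate 1 had 243 C1qb with 177 Hmox1. The 8 macrophage markers summed to 281 to 859 in KO MPP2 and 375 to 812 in WT MPP2. In MPP3 they summed to 577 to 714 in KO and 307 to 459.9 in WT, so that all KO libraries lay above all WT libraries there too. In LT-HSC they summed to 195 to 902 in KO and 235 to 444 in WT. The part of macrophage RNA in the Hmox1 values was not tested.

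Blvra, biliverdin reductase A, acts on the product of heme oxygenase. Blvra (ENSMUSG00000001999) lies at chr2:127070665-127097084 on the plus strand (GRCm38). In MPP2, Blvra had 1084, 1494 and 1346 normalized counts in KO libraries, against 902, 1415 and 1125 in WT libraries. In MPP3, Blvra had 879, 977 and 748 in KO libraries, against 829, 623, 368 and 789 in WT libraries. In LT-HSC, Blvra had 1169.7, 1069 and 1189.9 in KO libraries, against 999, 1308, 967 and 807 in WT libraries. The 4 WT MPP3 libraries included the lowest, replicates 2 and 3, and the populations overlapped. Blvra averaged 1228 ± 227 in MPP2 (SD, n = 6) and 745 ± 199 in MPP3 (SD, n = 7). It was higher in MPP2 than in MPP3, by 0.72 ± 0.18 (SE) on the log2 scale with a limma adjusted p of 0.0252. Without the 5 libraries with neutrophil transcripts the log2 fold change was 0.45 and the limma adjusted p 0.149. The call was also lost without KO MPP3 replicate 1, KO MPP3 replicate 3 or WT MPP2 replicate 2, at adjusted p of 0.0535 to 0.0786. Flvcr1, a heme exporter, ranged over 169 to 869 normalized counts and was not called.

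The metallothioneins Mt1 and Mt2 bind zinc and copper and lie side by side on chromosome 8. Their coding sequences of 186 bases differ at 38 bases, an identity of 79.6%. In MPP2, Mt1 had 2148, 3875 and 4260.0 normalized counts in KO libraries, against 896, 6791 and 1209 in WT libraries. In MPP3, Mt1 had 3203, 2365 and 1706 in KO libraries, against 2781, 69.1, 127 and 1478 in WT libraries. In LT-HSC, Mt1 had 1335, 3349 and 1024 in KO libraries, against 832, 655, 902 and 984 in WT libraries. Mt1 was lowest in WT MPP3 replicates 2 and 3 and highest in WT MPP2 replicate 2, and in LT-HSC all 3 KO libraries lay above all 4 WT libraries, as for 1.98% of all genes. In MPP2, Mt2 had 688, 723 and 1620.1 normalized counts in KO libraries, against 48.95, 1924 and 271 in WT libraries. In MPP3, Mt2 had 921, 702 and 236 in KO libraries, against 1148, 0, 0 and 252 in WT libraries. In LT-HSC, Mt2 had 55.5, 903 and 13.6 in KO libraries, against 0, 0, 257 and 73.2 in WT libraries. Mt2 was at 0 in the same WT MPP3 replicates and in WT LT-HSC replicates 1 and 2. Neither was called. The Mt1 fold change in KO against WT MPP3 was 2.42 ± 0.97 (SE) on the log2 scale with a limma adjusted p of 1, and 0.21 without the 5 libraries with neutrophil transcripts. Averaged over populations, the fold changes were 1.39 ± 0.57 (SE) for Mt1 and 3.04 ± 1.42 for Mt2, both with a limma adjusted p of 0.857. The Mt2 value was 1.09 with edgeR, 1.80 with a pseudocount of 16 and 1.70 without the 5 libraries with neutrophil transcripts. The Mt1 value was 0.84 with edgeR.

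**Figure D4:**
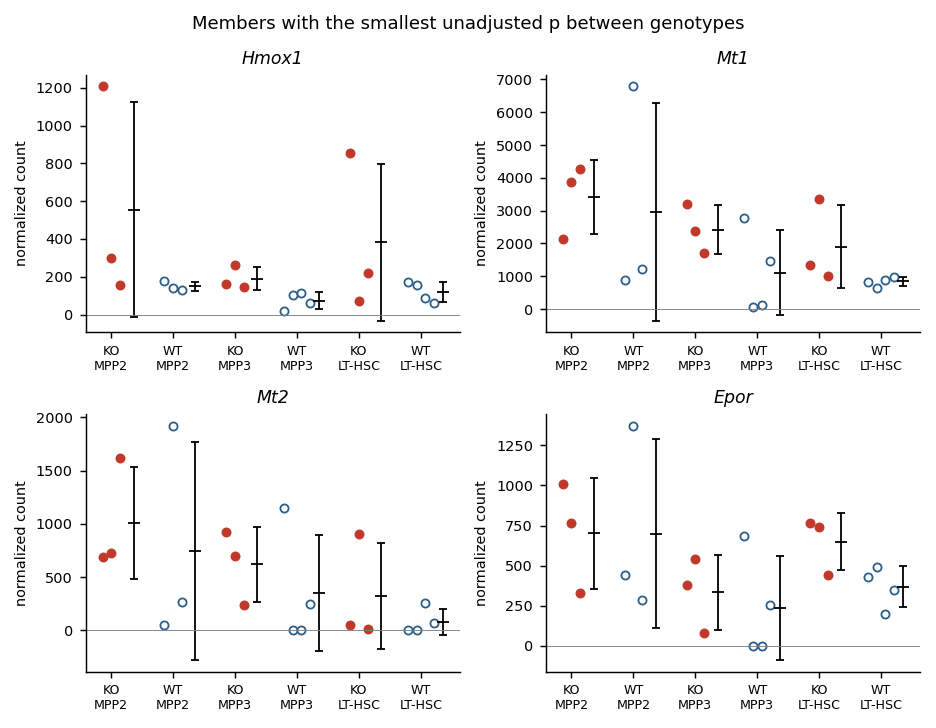
Normalized counts by library (points; KO filled red, WT open blue) with the group mean and SD (black) for Hmox1, Mt1, Mt2 and Epor in KO and WT MPP2, MPP3 and LT-HSC. Single libraries set the spread: Hmox1 is high in KO MPP2 replicate 1 and KO LT-HSC replicate 1, and Mt1, Mt2 and Epor are near 0 in WT MPP3 replicates 2 and 3.

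The comparison the groups were made for is KO against WT within each sorted population. In KO against WT MPP2, 0 of 34 genes were called, where 0.0117% of all genes were called, and 0 had an unadjusted p under 0.05. In KO against WT MPP3, 0 were called, where 0.00583% of all genes were called, and 1, Mt1, had an unadjusted p under 0.05. In KO against WT LT-HSC, 0 were called, where 0.00583% of all genes were called, and 0 had an unadjusted p under 0.05. Averaged over the populations, 0 were called, where 0.0117% of all genes were called, and 3 (Hmox1, Mt1 and Mt2) had an unadjusted p under 0.05. The test of a KO effect that differs between populations called 0 of 34, where 0% of all genes were called, and 0 of the 34 had an unadjusted p under 0.05. By edgeR's quasi-likelihood test 0 of the 34 were called in each of these 5 comparisons. The median log2 fold change of the 34 genes was -0.05 in MPP2, 0.47 in MPP3 and 0.32 in LT-HSC, beside -0.10, 0.03 and -0.03 over all genes tested. Positive fold changes numbered 16 of 34 in MPP2, 29 in MPP3 and 26 in LT-HSC, where 40.9%, 54% and 46.7% of all genes tested were positive. Without the 5 libraries with neutrophil transcripts the counts were 20, 15 and 23 of 34, beside 42%, 50.8% and 47.8% of all genes, and the medians of the 34 were 0.31, -0.03 and 0.16, with the sign turned in MPP2 and MPP3. In MPP3 all 9 tested red-cell receptor, membrane and enzyme genes had a positive fold change, with a median of 2.30. Without those libraries 2 of the 9 were positive, with a median of -0.58. WT MPP3 replicates 2 and 3 had the lowest erythroblast sums of all libraries.

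The smallest p-values named 3 genes in each population. In MPP2 they were Aco1 with a log2 fold change of -0.59 ± 0.31 (SE), Alas1 with -0.83 ± 0.46 and Ppox with -0.62 ± 0.36, at limma adjusted p of 0.684, 0.698 and 0.717. With 1 library left out, Aco1 ran from -0.90 without WT MPP2 replicate 3 to -0.35 without WT MPP2 replicate 1. Alas1 ran from -1.20 without WT MPP2 replicate 2 to -0.54 without WT MPP2 replicate 3. Ppox ran from -1.03 without KO MPP2 replicate 2 to -0.13 without KO MPP2 replicate 3. In MPP3 they were Mt1, Epor with 3.42 ± 1.63 and Hmox1 with 1.64 ± 0.80, each at a limma adjusted p of 1. Without the 5 libraries with neutrophil transcripts the Epor fold change turned to -0.71 and that of Hmox1 was 2.50. The Epor value was 0.50 with edgeR and 1.71 with a pseudocount of 16, and the Mt1 value 1.12 with edgeR. With 1 library left out, Epor ran from 1.89 without WT MPP3 replicate 2 to 5.03 without WT MPP3 replicate 1, Mt1 from 1.54 to 3.31 without the same libraries, and Hmox1 was lowest at 1.04, without WT MPP3 replicate 1. In LT-HSC they were Hba-a2, Hmox1 with 1.13 ± 0.80 and Slc11a2 with 0.50 ± 0.41, each at a limma adjusted p of 1. The LT-HSC value of Hmox1 was 0.38 without those libraries, 0.22 without KO LT-HSC replicate 1 alone and 1.97 without KO LT-HSC replicate 2. For the difference between populations they were Ppox, Alas1 and Aco1, each at a limma adjusted p of 1. Complete separation was found for Ppox and Hmox1 in MPP3, and for Alad and Mt1 in LT-HSC, each with all KO above all WT, as for 2.11% of all genes in MPP3 and 1.98% in LT-HSC. No gene of the 35 lay wholly lower in KO, against 1.82% of all genes in MPP3 and 3.02% in LT-HSC. In MPP2 no gene of the 35 separated, where 2.07% of all genes lay above and 3.85% below. Ppox had 1087, 1188 and 1245 in KO MPP3, against 810.0, 852, 616 and 1011 in WT MPP3. Alad had 1486, 1839 and 1541 in KO LT-HSC, against 1416, 1309, 1369.9 and 1099 in WT LT-HSC.

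**Figure D5:**
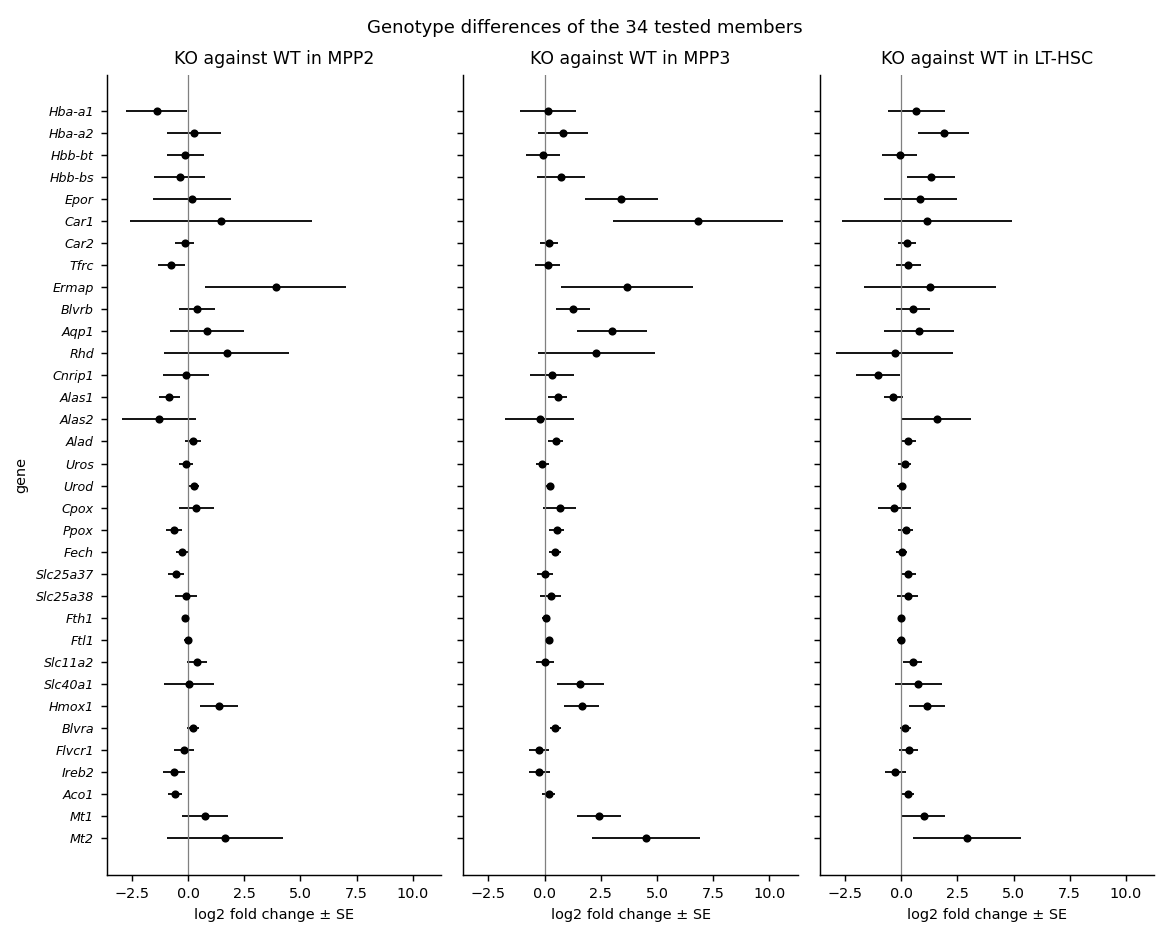
Log2 fold change (points) with its standard error (bars) for the 34 tested genes in KO against WT MPP2, MPP3 and LT-HSC, on 1 shared axis. The widest bars belong to Car1, Ermap, Rhd and Mt2, and no gene passed the threshold.

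A companion list of 32 other genes of heme and iron handling, of which 28 were tested, gave 0 calls in the 5 comparisons that involve genotype, where 0 to 0.0117% of all genes were called. In MPP2 against LT-HSC 1 of 28 was lower, Abcg2, a porphyrin and drug exporter, at -0.95 ± 0.21 (SE) on the log2 scale and a limma adjusted p of 0.0129, beside 5.08% of all genes lower. In MPP3 against LT-HSC 2 of 28 were higher and 3 lower, beside 3.22% and 4.18% of all genes. The higher ones were Trf, transferrin, at 2.57 ± 0.48, and Hp, haptoglobin, at 5.39 ± 1.35, with limma adjusted p of 0.00203 and 0.0174. The lower ones were Abcg2 at -1.35 ± 0.21, the second transferrin receptor Tfr2 at -1.13 ± 0.22 and the heme transporter Slc48a1 at -0.74 ± 0.14, with limma adjusted p of 0.000327, 0.00274 and 0.00249. In MPP2 against MPP3, Tfr2 was higher, at 0.82 ± 0.23, and Trf and the metal transporter Slc39a8 were lower, at -2.42 ± 0.50 and -2.98 ± 0.75, with limma adjusted p of 0.0355, 0.00707 and 0.0234, beside 2.24% of all genes higher and 4.64% lower. In MPP3 against LT-HSC the calls of Trf, Abcg2, Tfr2 and Slc48a1 held under all 26 alternatives, as did that of Trf in MPP2 against MPP3. Hp was not called with edgeR, with the library-number covariate or without KO LT-HSC replicate 2. Without the 5 libraries with neutrophil transcripts its log2 fold change was 7.55, with a limma adjusted p of 0.00509. Abcg2 in MPP2 against LT-HSC was not called without those libraries (limma adjusted p 0.101). In MPP2 against MPP3, Tfr2 was called under 16 and Slc39a8 under 20 of the 26 alternatives, and neither without those libraries, at limma adjusted p of 0.322 and 0.126. The Tfr2 fold change was then 0.45. Single libraries that ended the Tfr2 call were KO MPP2 replicate 3, all KO MPP3 libraries, WT MPP2 replicates 1 and 2 and WT MPP3 replicates 2 and 3. For Slc39a8 they were KO MPP2 replicate 1, KO MPP3 replicates 1 and 2 and WT MPP2 replicate 1. The Slc39a8 call was also lost with edgeR, and that of Tfr2 without the filter on low reads. Slc39a8 had 1.91, 114 and 0 normalized counts in KO MPP2, against 138, 235 and 96.9 in WT MPP2, and 162 to 339 in MPP3.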

How the data were processed

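RNA was sequenced from 20 libraries of sorted mouse bone-marrow cells. Per the submitters' processing notes, reads were aligned with TopHat2 2.1.1 to GRCm38, counted with HTSeq 0.11.2 and scaled with DESeq. The counting's annotation release and strand setting were not given in the sources used here. Library preparation used a Nextera XT kit, per the labels' protocols.

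The values deposited by the authors are a normalized signal, each library's counts divided by 1 size factor. Whole reads could be recovered for 100% of values, within a tolerance of 1e-06. The check cannot judge WT MPP2 replicate 2 and WT MPP3 replicate 1, whose 1-read value lies too near 1. The 5 HTSeq summary entries were left out. Of a library's entries, 52.6 to 57.8% were not uniquely aligned, 22.9 to 26.7% fell outside genes, 0.274 to 0.341% were ambiguous and 18.5 to 21.4% were counted in genes. The share that was not unique bears most on paralogs such as the globins. GENCODE M21 gave a symbol for 45143 of the 45706 identifiers. Among 24 pairs of libraries from the same group the lowest chi-square per gene was 32.7, well above sampling noise, so no library was taken as a repeat of another. Replicate numbers follow accession order.

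Group means of 6 groups were fitted with limma 3.58.1 (intensity trend, robust) in R 4.3.3 on log2(normalized count + 1), for 17160 genes kept by edgeR 4.0.16's expression filter (minimum count 10, total 15) on the recovered reads. Fold changes are differences of mean log2 values. Where some libraries lie near 0, such a difference depends on the added 1 and can exceed the ratio of group means. Car1, Epor and Mt2 are such genes, as are Hp and Slc39a8 of the companion list. Population differences are means of the KO and the WT difference. A gene was called at an adjusted p (Benjamini-Hochberg, all genes tested) under 0.05. Alternatives were edgeR's quasi-likelihood test on recovered reads, TMM scaling, a pseudocount of 16, no filter (30143 genes), the range of library numbers in the titles as covariate, and each library left out in turn. After seeing the data, fits without the libraries with neutrophil transcripts and, for population comparisons, with a block by sets of consecutive library numbers were added. The pipeline was tested on simulated data. Precision is limited by 3 or 4 libraries per group and, for the least abundant genes, by depth: over the 20 libraries Hba-a2 had 299 reads, Alas2 229 and Slc4a1 13.

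The 35 genes and the companion and marker lists were chosen with earlier results of these data known. Values by library are given for the globins, Epor, Car1, Car2, Tfrc, Alas1, Alas2, Hmox1, Slc40a1, Mt1, Mt2 and every called member, and fold changes for the 3 members of smallest p in each comparison. Values by library for Ermap, Rhd, Cnrip1, Ftl1, Ppox and Alad were chosen after they were seen. Promoters were read from RefSeq (GRCm38.p6), and coding windows and elements from GENCODE M21 (GRCm38).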

Additional observations from a re-analysis of the deposited data

Results flagged for a closer look

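In groups of 4 libraries, 8 of 70 tests of a gene's values found 1 library far from the other 3. Chance gives about 1 in 20 where values are normally spread and independent. Counts here are skewed, 4 of the 8 come from the same library and for 2 genes the other 3 libraries are at 0, so the chance rate among these tests is not known. In WT LT-HSC, replicate 3 stood above the others for 4 genes. It had 3082 normalized counts of Car1, against 0 to 18.04 in the other 3 libraries. It had 195 of Ermap, against 0 in each of the others. It had 394 of Rhd, against 1.83 to 3.80, and 1335 of Blvrb, against 709 to 812.

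In WT MPP3, 4 genes had 1 distant library. Replicate 2 had 656 normalized counts of Hbb-bt, against 145 to 169 in the others, and 209 of Slc25a38, against 400.4 to 411. Replicate 3 had 8.02 of Slc4a1, against 0 in the others. Replicate 4 had 687 of Aco1, against 391 to 427. The test of a KO effect that differs between populations called none of the 34 genes tested.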

How the results depend on the processing

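The count of 0 of 34 genes called by genotype held under all 26 alternatives in each of the 5 comparisons that involve genotype. In MPP2 against LT-HSC the count of 1 became 0 with edgeR, without a filter and without the libraries with neutrophil transcripts (an alternative chosen after seeing the data), 2 with the library-number covariate (Cnrip1 and Slc11a2, not Car1) and 3 with a pseudocount of 16, and ran from 0 to 3 with each library left out. In MPP3 against LT-HSC the count of 3 became 2 with edgeR and 1 without the libraries with neutrophil transcripts, and ran from 1 to 4 with each library left out. In MPP2 against MPP3 the count of 3 became 1 without those libraries, 4 with the covariate and 4 with a pseudocount of 16, and ran from 1 to 5 with each left out. The cause of these changes was not tested. Of 546 fold changes, of 21 named results over 26 alternatives, 493 kept direction and side of the threshold, 43 lost the call, 9 gained it and 1 changed sign, namely Epor in KO against WT MPP3, at -0.71 without the libraries with neutrophil transcripts.

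Over all genes, KO against WT in MPP2 gave 2 calls, and 338 without KO MPP2 replicate 2. Leaving out that library also raised the calls averaged over populations to 72, against 2 with it, and those for a KO effect that differs between populations to 84, against 0. None of the 35 genes was among them. Over all genes edgeR called 751 in MPP2 against LT-HSC and 745 in MPP2 against MPP3, where limma called 1256 and 1180. Without the libraries with neutrophil transcripts limma called 434 and 337, and the library-number covariate gave 1908 in MPP2 against LT-HSC. With each library left out, these counts ran from 705 to 1595 and from 664 to 1557. In the 3 genotype comparisons within a population edgeR called 0 of all genes, where limma called 2 in MPP2, 1 in MPP3 and 1 in LT-HSC, and by the other alternatives that keep every library limma called 0 to 3. TMM scaling moved the median of all genes by at most 0.00802 on the log2 scale. The labels carry no replicate numbers, and the titles do not say what the library number marks. Several runs of consecutive numbers hold the 3 populations of 1 genotype, but 101 to 104 can be divided as 101 to 103 or as 102 to 104. Genotype is constant within a set, so only population comparisons can take a replicate block. Within a set, the libraries all carried Xist or all carried Y-linked transcripts, under both divisions. Whether the libraries of a set share an animal was not tested. The correlation of deviations from group means within sets ran from 0.008 to 0.318, and under 0.1 in some pairs. The block is therefore given here only. With 101 to 103 as a set, the replicate block gave 3 of 34 genes in MPP2 against LT-HSC, 1 in MPP3 against LT-HSC and 4 in MPP2 against MPP3. With 102 to 104 as a set it gave 1, 2 and 4, and the 1 was Cnrip1, not Car1 (adjusted p 0.142). Alas1 in MPP3 against LT-HSC was called under both, and Car2 under neither. Fth1 in that comparison was called with 102 to 104 as a set (adjusted p 0.0494), but not with 101 to 103 (adjusted p 0.0672). With 3 or 4 libraries a group and single libraries that set the level of several red-cell genes, a difference by genotype smaller than this spread was not detectable.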
